A study of Mus musculus with 8 samples.

Results

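The 9 genes Gria1, Gria2, Gria3, Gria4, Grik1, Grik2, Grik3, Grik4 and Grik5 encode the subunits of AMPA receptors (4 genes) and kainate receptors (5 genes), and were taken by symbol from a table of 43372 gene symbols. All 9 were in the table and all 9 passed the filter on low counts, among 11828 genes tested. RNA sequencing compared 2 populations of neurons from mouse dorsal root ganglia (DRG), the clusters of sensory cell bodies beside the spinal cord. In the Sst group (genotype Ssttm2.1(cre)Zjh/J), the peptide gene Sst drives Cre recombinase. In the Trpv1 group (genotype Trpv1tm1(cre)Bbm/J), the driver is Trpv1, a heat- and capsaicin-gated channel gene. The labels describe the mice as C57Bl/6 of both sexes, but counts of Y-linked genes were found in Trpv1 libraries only, as given below. Mice of both groups were injected into the peritoneum at postnatal day 2 with a Cre-dependent virus. The virus was either AAV9-CAG-FLEX-eGFP-WPRE (green) or its red counterpart AAV9-CAG-FLEX-tdTomato-WPRE, and the labels do not say which group carried which reporter. Fluorescent neurons were picked by hand at 3 to 5 weeks of age, 150 to 250 per mouse, with 4 independent samples in each group. A neuron was fluorescent if it had taken up the virus and made Cre at any time after the injection, so the groups need not express Sst or Trpv1 at the time of picking.

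AMPA and kainate receptors are glutamate-gated cation channels built from subunits that assemble around a shared pore. In sensory neurons they lie on cell bodies and on the central terminals in the spinal cord, where kainate receptors in particular act on transmitter release. GluA2, encoded by Gria2, sets the calcium permeability of AMPA receptors. GluK1, GluK2 and GluK3 can form kainate receptors by themselves, whereas GluK4 and GluK5 need a partner among them.

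A stretch of coding sequence around the pore loop is shown for each member, since it holds the codon at which editing of RNA changes glutamine to arginine in transcripts of Gria2, Grik1 and Grik2, and since it shows how alike the paralogs are where reads could be shared. Capitals mark that codon. The sequences are 60 bases of the GENCODE M21 transcripts on GRCm38, in the direction of the gene.
Gria1: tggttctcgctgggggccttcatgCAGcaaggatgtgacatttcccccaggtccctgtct
Gria2: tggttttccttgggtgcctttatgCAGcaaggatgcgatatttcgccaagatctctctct
Gria3: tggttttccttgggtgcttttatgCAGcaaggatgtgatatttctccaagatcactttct
Gria4: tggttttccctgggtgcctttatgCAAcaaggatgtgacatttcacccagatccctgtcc
Grik1: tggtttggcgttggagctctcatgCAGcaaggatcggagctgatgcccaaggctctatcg
Grik2: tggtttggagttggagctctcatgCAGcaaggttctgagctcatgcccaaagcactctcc
Grik3: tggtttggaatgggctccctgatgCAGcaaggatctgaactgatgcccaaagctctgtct
Grik4: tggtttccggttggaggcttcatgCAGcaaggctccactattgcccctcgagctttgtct
Grik5: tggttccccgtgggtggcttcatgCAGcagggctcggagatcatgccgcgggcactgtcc
The stretch spans the junction of exons 11 and 12 in Gria1, Gria2 and Gria3 and of exons 12 and 13 in Gria4, Grik1, Grik2 and Grik3. It lies within exon 14 of Grik4 and exon 15 of Grik5. Pairs of AMPA genes matched at 48 to 55 of the 60 bases, pairs of kainate genes at 36 to 52, and an AMPA with a kainate gene at 37 to 42. Over all annotated transcripts, 29 of the 36 pairs shared no run of 50 bases, and the pair with the most, Gria2 and Gria3, shared 9 such runs, where a member held between 5219 and 15690 different ones. Counts per gene cannot show whether the codon was edited in the RNA, nor which splice form was present.

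The Sst libraries held 9021125 to 12153109 counts in total and the Trpv1 libraries 7419027 to 9568508, of which mitochondrial ribosomal RNA took 18.5% to 31.2%. The 8 listed markers of DRG neurons passed the filter and summed to 5817 to 6620 CPM (counts scaled to a common library total) in Sst neurons and 3861 to 4350 CPM in Trpv1 neurons. Of these markers only the synaptic gene Snap25 passed the test (4052 ± 372 CPM in Sst neurons and 2000 ± 271 CPM in Trpv1 neurons, SD, n = 4 each). Markers of satellite glia and Schwann cells summed to 1012 to 1508 CPM in Sst neurons and 937 to 1371 CPM in Trpv1 neurons (exact permutation test, two-sided, n = 4 each, p = 0.914). Of these 12 markers, S100b, which large sensory neurons also express, was the sole one that passed, being higher in the Sst libraries. The 7 markers of spinal cord and brain cells summed to 1.76 to 20.1 CPM in Sst neurons and 0.425 to 15.7 CPM in Trpv1 neurons, the highest in Sst replicate 4 and Trpv1 replicate 1. Of these, Slc32a1 (inhibitory neurons) and Olig2 (oligodendrocyte lineage) had 0 counts in all 8 libraries, while Gad2 (inhibitory neurons) had 38 counts in Sst replicate 2 and 119 in Trpv1 replicate 1, and Mog (oligodendrocytes) had 17 in Sst replicate 4 and 27 in Trpv1 replicate 3. Aqp4, the only spinal cord and brain marker that passed the filter, stood at 7.0 ± 8.19 CPM in Sst neurons and 2.12 ± 2.465 CPM in Trpv1 neurons. Aqp4 did not pass the test (edgeR adjusted p = 0.557). Immune and vascular markers summed to 6.95 to 23.6 CPM in Sst neurons and 2.16 to 38.4 CPM in Trpv1 neurons. Pituitary hormone genes summed to 457 CPM in Sst replicate 2 and to at least 1634 CPM in Trpv1 replicates 1, 2 and 3, and to at most 3.88 CPM in the other 4 libraries. Xist, transcribed from the inactive X chromosome, was counted in all 4 Sst libraries and in Trpv1 replicates 3 and 4, while Trpv1 replicates 1 and 2 held 0 and were the only ones with counts of 4 Y-linked genes. Sex was thus unbalanced between the libraries of the groups, with Y-linked counts in the Trpv1 group alone. The part of these differences in the results given next was not tested, apart from the values without the libraries concerned.

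The comparison asks how the neurons picked by Sst-driven and by Trpv1-driven Cre differ in their ionotropic glutamate receptors. Gria3, which encodes GluA3, was the member that changed, at 6.41-fold more in the Sst libraries, and the other 8 members did not pass the test. Thus 1 of 9 members was called, as higher in the Sst libraries, where 4.17% of all genes tested were called in either direction, 2.08% as higher and 2.09% as lower (edgeR quasi-likelihood test, Benjamini-Hochberg adjustment over all genes, adjusted p under 0.05). The median log2 fold change (Sst over Trpv1) of the members was −0.023, beside 0.0026 over all genes tested. Values of the groups did not overlap for 2 of 9 members, Gria1 and Gria3, in opposite directions, where 11.1% of all genes had no overlap. Each library is the RNA of many pooled neurons, so fewer cells expressing a gene and less of its RNA per cell cannot be told apart.

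**Figure D1:**
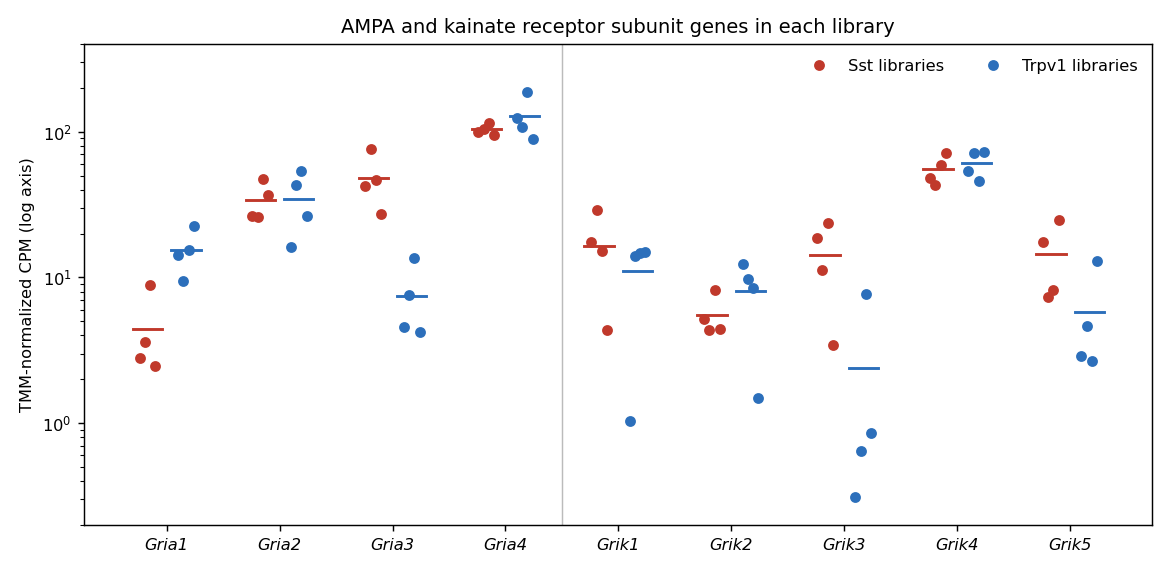
TMM-normalized CPM (log axis) of the 9 subunit genes, with a point for each library and a line at the mean of each group, Sst in red and Trpv1 in blue, AMPA genes left of the vertical line and kainate genes right of it. Every Sst library lies above every Trpv1 library for Gria3 and below for Gria1, and Grik3 is low in all Trpv1 libraries except replicate 3.

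Gria3 (GRCm38 chromosome X, 41400854 to 41678601, plus strand) stood at 42.1, 75.8, 46.5 and 27.4 CPM in Sst replicates 1 to 4, and at 4.55, 7.55, 13.6 and 4.25 CPM in Trpv1 replicates 1 to 4. The lowest Sst library thus lay above the highest Trpv1 library. The means were 47.9 ± 20.3 CPM in Sst neurons and 7.48 ± 4.33 CPM in Trpv1 neurons (SD, n = 4 each), which gave 2.68 as log2 fold change (SE 0.506, edgeR adjusted p = 0.00463), from 1922 counts in the Sst and 250 in the Trpv1 group. With any single library left out Gria3 still passed, with log2 fold changes from 2.39 to 3.14 and edgeR adjusted p from 0.00327 to 0.0266. The call ended when presence of Xist was added to the model (log2 fold change 2.43, edgeR adjusted p = 0.0745) and among the 6 libraries with Xist and without Y-linked counts (2.45, adjusted p = 0.0843). Gria3 is X-linked, and within the Trpv1 group it stood at 13.6 and 4.25 CPM in the libraries that held Xist and at 4.55 and 7.55 CPM in those that held none. Where libraries holding more than 1 count of the pituitary genes Gh or Prl were dropped, which left 3 Sst libraries against Trpv1 replicate 4, the log2 fold change was 3.22 (edgeR adjusted p = 0.137, the lone Trpv1 library being taken to vary like the Sst ones).

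Of 8 listed markers of myelinated sensory neurons, 5 were called as higher in the Sst libraries, where 2.08% of all genes tested were. The sum over 8 genes was 1417 to 2462 CPM in Sst neurons and 341 to 589 CPM in Trpv1 neurons. Nefh, the heavy neurofilament gene, stood at 943 ± 254 CPM in Sst neurons and 246 ± 87.7 CPM in Trpv1 neurons, and Ntrk3, the receptor for neurotrophin-3, at 68.6 ± 19.8 CPM in Sst neurons and 4.23 ± 3.79 CPM in Trpv1 neurons (SD, n = 4 each). Ntrk2, Ldhb and Spp1 were the other called markers. The call of Spp1 ended without Sst replicate 3, Trpv1 replicate 1 or Trpv1 replicate 3. Pvalb, Cntnap2 and Fam19a1 did not pass. Pvalb stood at 16.6 ± 14.9 CPM in Sst neurons and 1.35 ± 1.28 CPM in Trpv1 neurons. Its groups did not overlap (log2 fold change 3.60, edgeR adjusted p = 0.0668). Fam19a1 stood lower in Sst neurons, at 2.12 ± 1.96 CPM, against 5.61 ± 4.71 CPM in Trpv1 neurons (log2 fold change −1.40). No marker of the list was at 0 in either group. The part of these markers in the difference of Gria3 was not tested. Over the 8 libraries, the 2 genes whose log2 CPM followed Gria3 most closely among 10550 protein-coding genes were Shox2, a homeobox gene of touch-sensitive neuron lineages (Pearson r = 0.989), and Rbbp5, a subunit of histone methyltransferase complexes (r = 0.989). These correlations describe the same 8 libraries, including the difference between groups. Shox2 stood at 18.1 ± 13.3 CPM in Sst neurons and 0.979 ± 1.35 CPM in Trpv1 neurons. It passed narrowly (edgeR adjusted p = 0.0440), and its call ended in 11 of 18 alternatives. Rbbp5 stood at 57.5 ± 11.6 CPM in Sst neurons and 26.9 ± 5.06 CPM in Trpv1 neurons and did not pass (edgeR adjusted p = 0.0856). Its groups did not overlap, and it was called in 1 of 19 alternatives, DESeq2 (adjusted p = 0.00272).

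Gria1 (chromosome 11, 57011387 to 57330244, plus strand), which encodes GluA1, stood at 2.79, 3.60, 8.81 and 2.45 CPM in Sst replicates 1 to 4, and at 14.2, 9.46, 15.4 and 22.5 CPM in Trpv1 replicates 1 to 4. The groups did not overlap, but Sst replicate 3 lay close under Trpv1 replicate 2. The log2 fold change was −1.80 (SE 0.682), with an unadjusted p of 0.0178 that did not pass after adjustment in edgeR (adjusted p = 0.180). DESeq2, which called 8.69% of its genes (4.64% as lower), called Gria1 (log2 fold change −1.81, adjusted p = 0.0205), and its adjusted p lay between 0.0205 and 0.499 across the alternatives. Its log2 fold change stayed negative in all 19 alternatives.

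Gria2 and Gria4 showed no difference that passed. Gria2 (chromosome 3, 80681450 to 80802835, minus strand) stood at 26.5, 26.2, 47.0 and 37.0 CPM in Sst replicates 1 to 4 and at 16.2, 43.0, 53.4 and 26.3 CPM in Trpv1 replicates 1 to 4. The Sst values lay within the range of the Trpv1 values, and the log2 fold change was −0.023 (SE 0.423, edgeR adjusted p = 0.987). Gria4 (chromosome 9, 4417896 to 4796234, minus strand), which encodes GluA4, stood at 98.8, 105, 115 and 94.8 CPM in Sst replicates 1 to 4, the narrowest spread of any member in either group (coefficient of variation 8.72%). In Trpv1 replicates 1 to 4 it stood at 125, 108, 187 and 89.6 CPM, so the groups overlapped (log2 fold change −0.30, SE 0.256, edgeR adjusted p = 0.655).

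Grik3, which encodes GluK3 (chromosome 4, 125490700 to 125714173, plus strand), had the second-largest fitted difference of the 9 and rested on few counts in the Trpv1 group. It held 188, 103, 256 and 38 counts in Sst replicates 1 to 4, or 18.7, 11.2, 23.7 and 3.45 CPM. In Trpv1 replicates 1 to 4 it held 3, 5, 61 and 8 counts, or 0.310, 0.639, 7.74 and 0.849 CPM. Trpv1 replicate 3 lay above Sst replicate 4, so the groups overlapped. The log2 fold change was 2.58 (SE 1.01, unadjusted p = 0.0207, edgeR adjusted p = 0.193). Without Trpv1 replicate 3 the value was 4.55 and passed (edgeR adjusted p = 0.0266, where 2.64% of all genes were called and 1.49% as higher), and without Sst replicate 4 it was 2.91 and did not pass (adjusted p = 0.137). Trpv1 replicate 3 also had the highest sum of myelinated neuron markers within its group, at 589 CPM. Trpv1 replicate 1, which had the lowest Grik3, was near it at 547 CPM. The largest share of mitochondrial ribosomal RNA, at 31.2%, was in Trpv1 replicate 3. The part of these values in the count of Grik3 was not tested.

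Grik5 and Grik1 varied widely within groups. Grik5 (chromosome 7, 25009849 to 25072346, minus strand), which encodes GluK5, stood at 17.4, 7.30, 8.16 and 24.8 CPM in Sst replicates 1 to 4 and at 2.90, 4.60, 2.67 and 12.9 CPM in Trpv1 replicates 1 to 4. Only Trpv1 replicate 4 lay within the range of the Sst libraries, and the log2 fold change of 1.32 did not pass (SE 0.730, edgeR adjusted p = 0.417). Without Trpv1 replicate 4 it was 2.10 (edgeR adjusted p = 0.171). Grik1 (chromosome 16, 87895900 to 88290265, minus strand), which encodes GluK1, a subunit long known from recordings of DRG neurons, stood at 17.4, 29.1, 15.3 and 4.35 CPM in Sst replicates 1 to 4. In Trpv1 replicates 2, 3 and 4 it stood at 14.1, 14.6 and 14.9 CPM, and in Trpv1 replicate 1 at 1.03 CPM, from 10 counts. Each group thus held a low library, and the log2 fold change was 0.57 (SE 0.738, edgeR adjusted p = 0.794).

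Grik2 (chromosome 10, 49094833 to 49788766, minus strand), which encodes GluK2, was low in both groups, at 5.18, 4.36, 8.16 and 4.44 CPM in Sst replicates 1 to 4 and 12.3, 9.72, 8.50 and 1.49 CPM in Trpv1 replicates 1 to 4. Trpv1 replicates 1, 2 and 3 lay above all Sst libraries and Trpv1 replicate 4 below them (log2 fold change −0.53, SE 0.806, edgeR adjusted p = 0.832). Grik4 (chromosome 9, 42518135 to 42944493, minus strand), which encodes GluK4, was the most even kainate gene between groups, at 48.3, 42.8, 58.9 and 71.9 CPM in Sst replicates 1 to 4 and 54.1, 71.8, 45.7 and 72.1 CPM in Trpv1 replicates 1 to 4. Its log2 fold change was −0.13 (SE 0.303, edgeR adjusted p = 0.899).

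**Figure D2:**
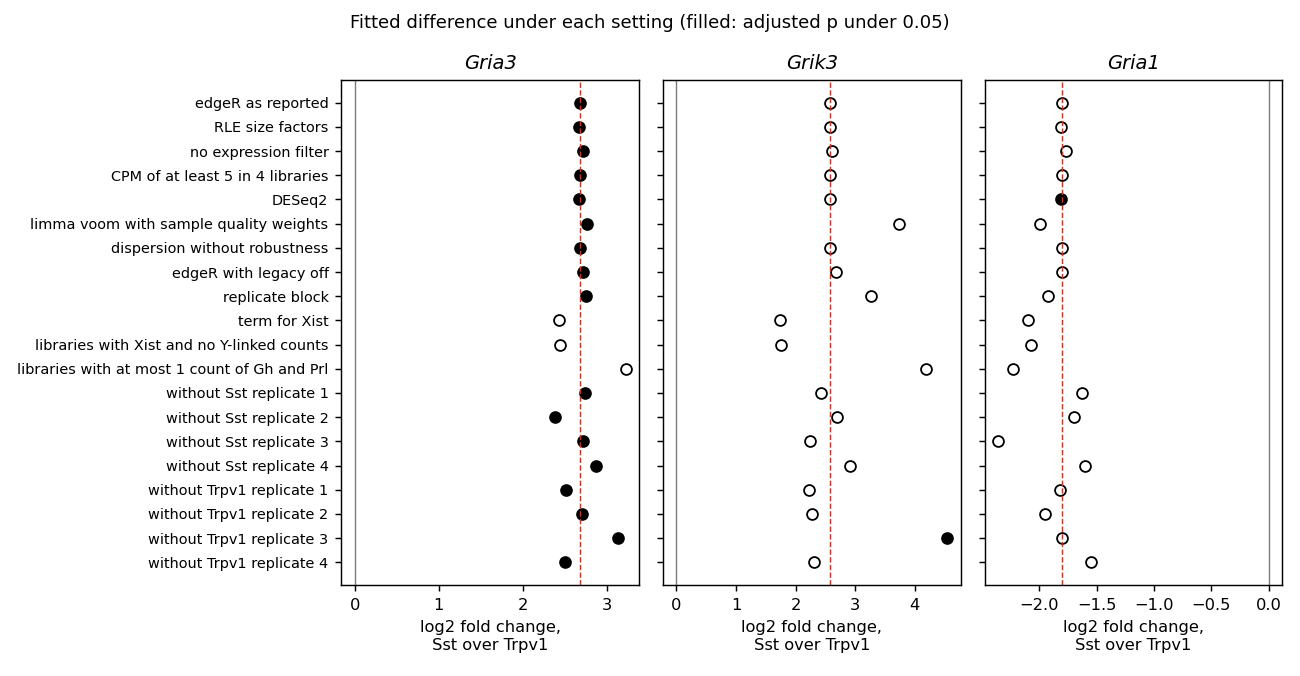
Log2 fold change (Sst over Trpv1) of Gria3, Grik3 and Gria1 under each of 20 settings, the reported edgeR fit on top, with filled points where the adjusted p is under 0.05 and a dashed line at the reported value. Gria3 is filled in all but 3 settings, Grik3 only without Trpv1 replicate 3 and Gria1 only with DESeq2, and no point crosses 0.

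To compare levels between genes, CPM were divided by the merged exon length of each gene in GENCODE M21. Gria4 had the highest level in both groups, at 16.4 ± 1.43 CPM per kb in Sst neurons and 20.2 ± 6.71 CPM per kb in Trpv1 neurons (SD, n = 4 each). Grik4 followed, at 9.31 ± 2.15 CPM per kb in Sst neurons and 10.2 ± 2.21 CPM per kb in Trpv1 neurons, and stood apart from its neighbours in the order by more than their SDs. In the Sst libraries Gria3 came next, at 4.86 ± 2.06 CPM per kb, followed by Grik5, Grik1, Gria2, Grik3, Gria1 and Grik2 (0.418 ± 0.135). In the Trpv1 libraries the order after Grik4 was Gria1 (2.54 ± 0.892), Gria2, Grik1, Grik5, Gria3 (0.759 ± 0.439), Grik2 and Grik3 (0.266 ± 0.399). From Gria3 on in the Sst libraries, and from Gria1 on in the Trpv1 libraries, the mean ± SD of each gene overlapped that of the next, so neighbours in these stretches did not differ beyond their spread. With the length of the longest transcript instead, Gria4 was again highest and Grik4 came after it, but Gria3 in the Sst libraries came to 9.21 ± 3.89 CPM per kb, no longer apart from Grik4 at 9.43 ± 2.18.

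Within the AMPA genes, the level per length of Gria4 made up 68.3% ± 4.63 of the sum in Sst neurons and 77.9% ± 5.45 in Trpv1 neurons (SD, n = 4 each). Gria3 took 13.5% to 28.9% of the sum in the Sst libraries and 1.95% to 3.72% in the Trpv1 libraries. Gria1 took 1.97% to 5.30% in Sst neurons and 6.86% to 18.6% in Trpv1 neurons, and Gria2 9.14% ± 2.53 in Sst neurons and 8.64% ± 3.29 in Trpv1 neurons. The summed level of the 4 AMPA genes was 24.2 ± 3.38 CPM per kb in Sst neurons and 25.7 ± 7.67 CPM per kb in Trpv1 neurons. Within the kainate genes Grik4 made up 55.7% ± 8.16 in Sst neurons and 74.0% ± 8.34 in Trpv1 neurons, and the sum of the 5 genes was 16.6 ± 1.54 CPM per kb in Sst neurons and 13.9 ± 3.02 CPM per kb in Trpv1 neurons. The shares depend on the length used. With the longest transcript, Gria4 made up 59.5% ± 5.61 in Sst neurons and 75.2% ± 5.56 in Trpv1 neurons. Gria3 then took 19.7% to 39.3% in the Sst libraries and 3.13% to 5.81% in the Trpv1 libraries. Grik4 made up 47.7% ± 9.69 in Sst neurons and 65.8% ± 10.5 in Trpv1 neurons. In Sst replicate 2 Grik1 took 42.5%, above Grik4 at 38.8%. These shares are a description and repeat the differences of the single genes given above.

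**Figure D3:**
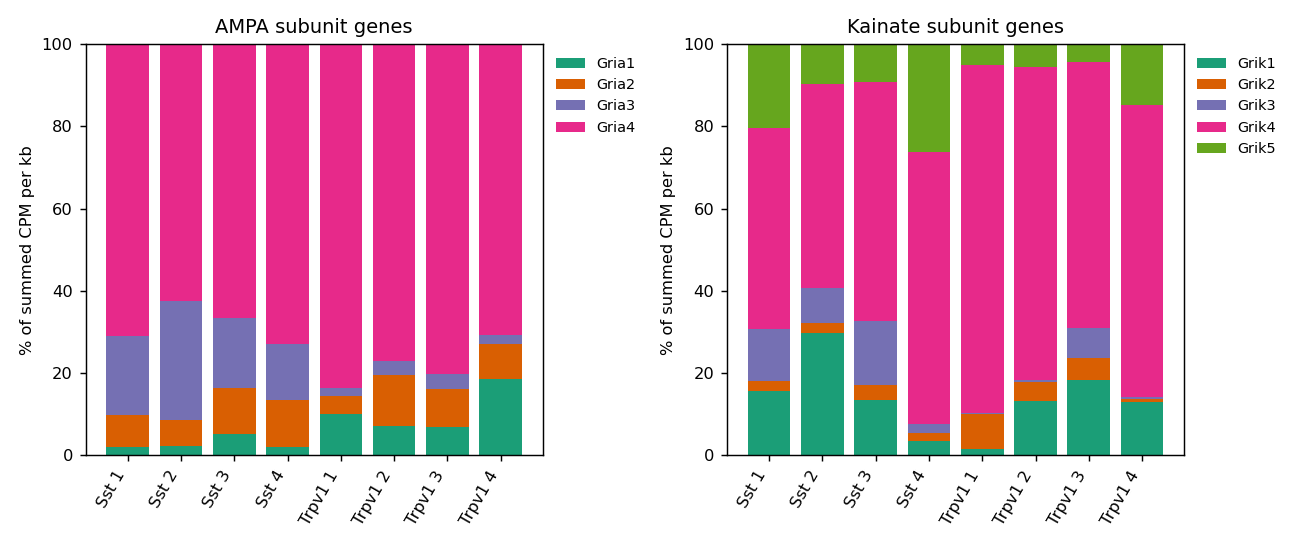
Share (%) of each gene in the summed level per length (CPM per kb of merged exons) of the AMPA genes (left) and kainate genes (right), with a bar for each library and Sst libraries left of Trpv1 libraries. Gria4 and Grik4 form the largest segment of every bar, and the Gria3 segment is at 13.5% or more in each Sst library and at 3.72% or less in each Trpv1 library.

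Other genes of glutamate signalling were described in 7 lists of 59 genes in all, of which 46 were tested, 4 were higher, 3 were lower and 39 did not pass. That is 15.2% called, beside 4.17% of all genes. Of the 7 calls, 6 ended when 1 or another library was left out, Slc17a7 being the exception. Grid1 and Slc17a7 passed the filter on low counts only through the Sst libraries, and Shisa6 only through the Trpv1 libraries. Cnih3 and Grasp, named after their values were seen, had counts mostly in 1 group too but did not pass the filter. The share called is thus a description and not a result about the lists. Among NMDA and delta receptor subunits 1 of 5 tested genes was higher and 1 lower, with a median log2 fold change of −0.60. Grin3a, an NMDA receptor subunit gene, stood at 26.9, 28.7, 22.3 and 25.8 CPM in Sst replicates 1 to 4 and at 57.3, 39.7, 69.3 and 103 CPM in Trpv1 replicates 1 to 4. The groups did not overlap (log2 fold change −1.38, SE 0.353, edgeR adjusted p = 0.0355), and the call ended without any library other than Trpv1 replicate 2 (edgeR adjusted p from 0.0604 to 0.130). Grid1, a delta receptor gene that binds cerebellins rather than acting as a glutamate channel, held 174 counts in the Sst and 3 in the Trpv1 group, a ratio of 49.2 (95% exact binomial interval 16.6 to 241, covering counting error only). It passed narrowly (edgeR adjusted p = 0.0446), and the call ended without any one of the 8 libraries (adjusted p from 0.0624 to 0.174), with fitted log2 fold changes between 4.86 without Sst replicate 3 and 6.38 without Trpv1 replicate 4, against 5.45 with all. Grin2a, Grin2b, Grin2c and Grin3b did not pass the filter on low counts.

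Auxiliary subunits tune the gating and trafficking of AMPA receptors. Of 13 listed, 9 were tested and 1 was called, with a median log2 fold change of −0.24. Cacng8, Cnih3, Shisa8 and Shisa9 did not pass the filter on low counts. Cnih3 held 0 counts in Sst replicates 1 to 4 and 18, 11, 38 and 4 in Trpv1 replicates 1 to 4. DESeq2 called Cnih3 lower. Shisa6, which keeps AMPA receptors from desensitizing, stood at 3.59, 0, 1.67 and 0 CPM in Sst replicates 1 to 4 and at 11.0, 98.3, 59.0 and 8.17 CPM in Trpv1 replicates 1 to 4. The groups did not overlap (log2 fold change −5.05, SE 1.24, edgeR adjusted p = 0.0367). The fitted value was −6.25 without Sst replicate 1 and −4.28 without Trpv1 replicate 2, and the call ended without Sst replicate 3, Trpv1 replicate 2 or Trpv1 replicate 3 (edgeR adjusted p from 0.0591 to 0.137). The transmembrane AMPA receptor regulatory gene Cacng5 stood at 24.8 ± 8.44 CPM in Sst neurons and 5.41 ± 4.99 CPM in Trpv1 neurons (log2 fold change 2.19, edgeR adjusted p = 0.0818), and was called with DESeq2, with voom, with no filter, with legacy off and without Trpv1 replicate 2. Cacng4 of the same family lay the other way, at 1.62 ± 2.56 CPM in Sst neurons and 16.2 ± 10.6 CPM in Trpv1 neurons (log2 fold change −3.32, edgeR adjusted p = 0.176), and was called with legacy off. Both were chosen here after their values were seen. Both tested auxiliary genes of kainate receptors did not pass. Neto2, the more abundant, stood at 63.5 ± 25.0 CPM in Sst neurons and 104 ± 39.2 CPM in Trpv1 neurons (log2 fold change −0.70, edgeR adjusted p = 0.319).

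Among 9 genes of AMPA receptor assembly, 1 was higher and 8 did not pass (median log2 fold change 0.29). Abhd12, a lipid hydrolase gene, stood at 83.3 ± 14.5 CPM in Sst neurons and 32.0 ± 11.4 CPM in Trpv1 neurons (log2 fold change 1.38, SE 0.328, edgeR adjusted p = 0.0223). It was no longer called when any of Sst replicate 1, Sst replicate 3, Trpv1 replicate 1 and Trpv1 replicate 3 was left out (edgeR adjusted p from 0.0693 to 0.0731). Of 13 tested genes for receptor scaffolds and trafficking, 1 was higher, 1 was lower and 11 did not pass (median −0.38). Dlg2, the scaffold protein PSD-93, stood at 50.6 ± 21.4 CPM in Sst neurons and 14.8 ± 4.32 CPM in Trpv1 neurons (log2 fold change 1.77, edgeR adjusted p = 0.0263), a call that held only without Sst replicate 4 or Trpv1 replicate 2 when single libraries were left out (otherwise edgeR adjusted p from 0.0521 to 0.124). Nptxr, a pentraxin receptor that gathers AMPA receptors at synapses, stood at 64.2, 64.0, 134 and 63.9 CPM in Sst replicates 1 to 4 and at 277, 206, 125 and 129 CPM in Trpv1 replicates 1 to 4. Sst replicate 3 overlapped the Trpv1 group (log2 fold change −1.17, edgeR adjusted p = 0.0481), and the call held only without Sst replicate 3, Trpv1 replicate 3 or Trpv1 replicate 4 when single libraries were left out (otherwise edgeR adjusted p from 0.106 to 0.190). Of these 6 calls, 5 were also lost once presence of Xist was modelled or when Trpv1 replicates 1 and 2 were dropped, and that of Grin3a was kept in both. With Xist modelled the log2 fold changes were 5.08 for Grid1, −4.66 for Shisa6, 1.48 for Abhd12, 2.10 for Dlg2 and −0.63 for Nptxr. Among the 4 libraries with few or no pituitary counts all 6 calls were lost (edgeR adjusted p from 0.129 to 0.698), with log2 fold changes of −2.001 for Grin3a, 4.39 for Grid1, −2.17 for Shisa6, 1.35 for Abhd12, 1.90 for Dlg2 and −0.52 for Nptxr.

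The 3 genes of RNA editing enzymes were tested and did not pass (median log2 fold change 0.37). Adarb1, which edits the pore codon of Gria2 transcripts, stood at 50.2 ± 20.5 CPM in Sst neurons and 38.8 ± 27.1 CPM in Trpv1 neurons (log2 fold change 0.37, edgeR adjusted p = 0.798). Of 5 tested genes of glutamate supply and uptake, 1 was higher and 4 did not pass in edgeR (median log2 fold change 0.74). Slc17a7, a vesicular glutamate transporter gene, held 1767 counts in the Sst and 1 in the Trpv1 group, which lay in replicate 3, a ratio of 1499 (95% exact binomial interval 269 to 59230, covering counting error only). Its fitted fold change passed in all 19 alternatives (edgeR adjusted p = 2.27e-06 as reported). Without that library the Trpv1 group held 0 counts of it. Slc17a6, the more abundant transporter gene, lay the other way without overlap of the groups, at 174 ± 27.3 CPM in Sst neurons and 273 ± 50.2 CPM in Trpv1 neurons (log2 fold change −0.65, edgeR adjusted p = 0.104), was called lower by DESeq2, and was chosen here after its values were seen.

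**Figure D4:**
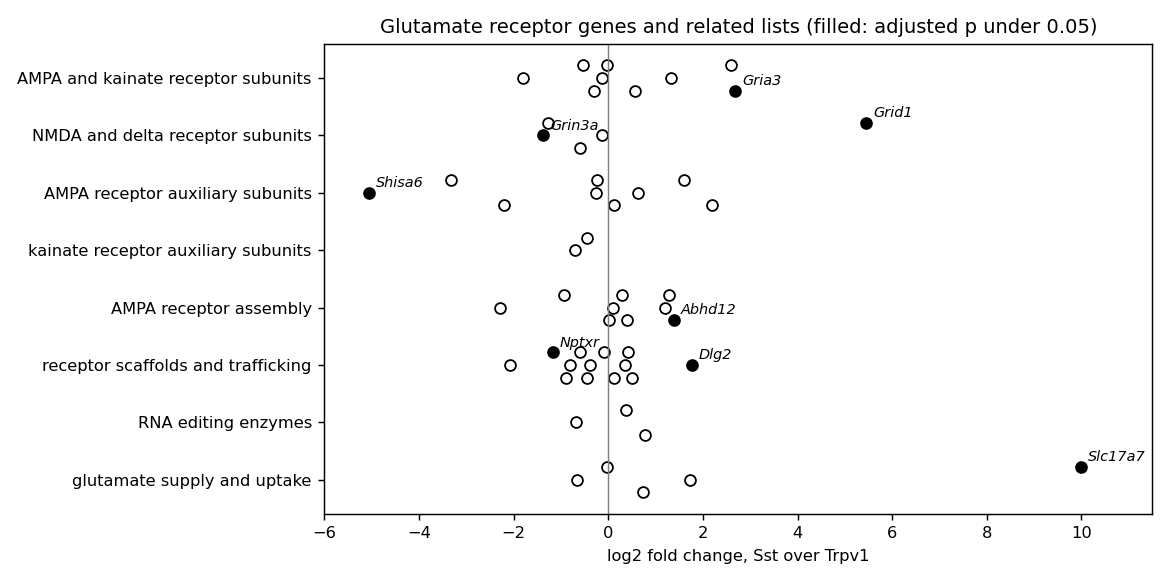
Log2 fold change (Sst over Trpv1) of each tested gene of the 9 subunits (top row) and of 7 related lists, with filled, named points where the edgeR adjusted p is under 0.05. Calls lie on both sides of 0, and the positions of Grid1 and Slc17a7 rest on 3 counts and 1 count in the Trpv1 group.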

How the data were processed

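The deposited table holds the authors' raw counts (whole numbers of reads) by gene symbol for 8 samples. Per the labels' protocols, PicoPure RNA was amplified with Ovation V2 and made into Nextera XT libraries; amplification from few cells adds spread, most of all at low abundance. Reads carry no molecular identifiers. Per the submitters' processing notes, bcl2fastq 2.17, Trimmomatic 0.33, featureCounts and GRCm38 were used; for the aligner, annotation and strand setting nothing is given in the sources used here. All columns matched a sample title. Exons of Gria2, Gria3, Gria4 and Grik4 overlap small RNA genes over less than 1% of their length.

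Genes passing edgeR's expression filter (minimum count 10) were compared with the quasi-likelihood F test of edgeR 4.0.16 in R 4.3.3 (TMM scaling, robust, default legacy setting, group as sole term, two-sided). P-values were adjusted by the Benjamini-Hochberg method across every gene tested, with calls at 0.05. SE is the log2 fold change divided by the root of F. CPM use TMM-scaled totals; correlations used log2 CPM (prior count 2). Lengths and coordinates are from GENCODE M21. Alternatives were RLE size factors, no filter, a stricter filter, no robustness, DESeq2 1.42.0 and limma 3.58.1 voom with sample quality weights. Others were a replicate block, a term for Xist, 2 subsets of libraries and each library left out. A further one, edgeR with legacy off, was chosen after seeing the data.

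The members, lists and alternatives were chosen with earlier results of these data known. Named genes were the 9 members, each related list's called genes or else its most abundant gene, and the 2 genes most correlated with a called member (20 in all). Other genes named are markers, genes at or near 0 counts, or genes said to be chosen after their values were seen. Replicates are called independent samples in the labels, which do not say that they came from separate mice, so p-values measure the spread between samples. Epb41l1 matched no symbol.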

Additional observations from a re-analysis of the deposited data

Results flagged for a closer look

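Among 40 sets of 4 libraries (20 named genes in each group), 5 held a library far from the other 3 by Dixon's test at 95%. For normally distributed values chance flags about 1 in 20 sets. CPM from low counts need not be so distributed, so the number of flags cannot be set against that rate. Grik1 stood at 1.03 CPM in Trpv1 replicate 1, against 14.1 to 14.9 CPM in the other Trpv1 libraries. Grik3 stood at 7.74 CPM in Trpv1 replicate 3, against 0.310 to 0.849 CPM in the other Trpv1 libraries. Grid1 stood at 8.53 CPM in Sst replicate 3, against 2.59 to 2.94 CPM in the other Sst libraries. Nptxr stood at 134 CPM in Sst replicate 3, against 63.9 to 64.2 CPM in the other Sst libraries. Slc17a7 stood at 0.127 CPM in Trpv1 replicate 3, from 1 count, and at 0 in the other Trpv1 libraries, where any single count would be flagged.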

How the results depend on the processing

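The reported edgeR fit called 493 genes, 246 higher and 247 lower in the Sst libraries, and 1 member. With legacy off it called 751 (360 higher, 391 lower) and 1 member, Gria3. DESeq2 called 1204 (561 higher, 643 lower) and 2 members, 1 higher and 1 lower. A term for Xist gave 268 (113 higher, 155 lower), the 6 libraries with Xist 230 (124 higher, 106 lower) and the 4 with at most 1 count of Gh and Prl 55 (34 higher, 21 lower), each with 0 members called. Leaving out single libraries gave 306 to 503 genes (149 to 249 higher, 142 to 254 lower) and 1 to 2 members, with 306 without Sst replicate 3, 328 without Trpv1 replicate 1 and 326 without Trpv1 replicate 3. Per the labels, each picking session gave a sample of each genotype, but they do not say that the replicate number marks the session. Same-numbered samples did not deviate together (correlations −0.0296 to 0.0316), so the numbers were not taken as pairs. Any pairing by session was thus left out of the reported fit. The replicate block called 398 genes and 1 member. It ended the calls of Grin3a, Grid1, Abhd12, Dlg2 and Nptxr (edgeR adjusted p from 0.0515 to 0.126) but not those of Shisa6 and Slc17a7. Of 171 member values under alternatives, 152 kept direction and call, and 14 changed sign, all of members far from the threshold. Gria2 stood at 0.011 with no filter, 0.053 with voom, 0.0066 with legacy off, 0.074 with the replicate block, 0.52 without the pituitary libraries and between −0.24 and 0.26 with single libraries left out. Grik2 stood at 0.15 with a term for Xist, 0.16 among libraries with Xist and 2.03 without the pituitary libraries. In that last set Gria4, Grik1, Neto2 and Adarb1 stood at 0.24, −0.23, 0.43 and −0.42, where the median over all genes was 0.23. The cause was not tested. With the longest transcript, mean levels per length of Gria2 and Grik1 over all 8 libraries moved to 3.32 and 3.79 CPM per kb from 2.22 and 2.06. Those moves exceeded the SD over the 8 libraries, which includes the difference between groups. By the SD within the Sst group, Gria3 (9.21 from 4.86 ± 2.06), Gria4 (19.0 from 16.4 ± 1.43) and Grik2 (0.587 from 0.418 ± 0.135) also moved beyond it. Within the Trpv1 group so did Gria3 (1.44 from 0.759 ± 0.439).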
